A study of Mus musculus with 4 samples.

Results

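RUNX and ETS factors are DNA-binding proteins that, with the RUNX partner CBF-beta, set lymphocyte gene programmes, and 8 of their genes were followed in sorted mouse thymic invariant natural killer T (iNKT) cells: Runx1, Runx2, Runx3, Cbfb, Ets1, Elf1, Fli1 and Gabpa. They were taken by name from the 53715 gene IDs of the deposited count table, and all 8 were present and passed the filter on low counts, among 14185 genes tested. The cells were sorted from thymus as live (7AAD-negative), CD1d-tetramer-binding and TCRβ-positive. The knockout mice, labelled Mettl3fl/flCD4-cre, have a floxed Mettl3 gene and Cre recombinase under Cd4 control, so deletion is limited to cells that have switched Cd4 on, which includes the CD4+CD8+ precursors of iNKT cells. The WT mice carry no further label, and whether they had Cre or the floxed allele is not given. Both groups are C57BL/6 mice of 6 to 8 weeks, with 2 libraries each, made from total RNA by Smart-seq2, which copies whole transcripts and keeps no strand. METTL3 is the enzyme that adds the m6A mark to mRNA, and the question is what iNKT transcripts look like without it. Separate animals are not stated for the libraries of a genotype, so each p-value reflects how much these libraries vary, a spread that may be technical.

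The RUNX proteins bind DNA through the Runt domain and do so well only when paired with CBF-beta, which itself does not contact DNA. RUNX1 is prominent in CD4+CD8+ thymocytes and silences Cd4 in early precursors, RUNX3 is the main member of cytotoxic and natural killer lineages, and RUNX2 is best known from bone. ETS proteins share a winged helix that reads a GGAA core. ETS1, FLI1 and ELF1 are abundant in lymphocytes, while GABPA works with a separate beta subunit at many housekeeping and mitochondrial promoters.

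Each of the 3 RUNX genes has an upstream promoter that carries RUNX binding letters, and these windows are shown because RUNX proteins are known to bind promoters of their own family. RefSeq windows (GRCm38.p6), 250 bases before to 50 after an annotated start, were held for 6 of the 8 genes, 9 windows in all; Ets1 and Fli1 had none. Capitals mark the RUNX letters TGTGGT or their reverse complement ACCACA. The windows are chr16:92826025-92826324 for Runx1, chr17:44814578-44814877 for Runx2 (both minus strand) and chr4:135120395-135120694 for Runx3 (plus strand), each read 5′ to 3′ along its gene.
Runx1 upstream: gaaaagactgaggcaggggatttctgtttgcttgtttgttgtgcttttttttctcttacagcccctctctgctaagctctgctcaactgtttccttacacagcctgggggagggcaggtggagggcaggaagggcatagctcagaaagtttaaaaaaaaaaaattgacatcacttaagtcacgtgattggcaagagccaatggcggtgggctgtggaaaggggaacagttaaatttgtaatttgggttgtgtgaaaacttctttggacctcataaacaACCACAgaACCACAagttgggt
Runx2 upstream: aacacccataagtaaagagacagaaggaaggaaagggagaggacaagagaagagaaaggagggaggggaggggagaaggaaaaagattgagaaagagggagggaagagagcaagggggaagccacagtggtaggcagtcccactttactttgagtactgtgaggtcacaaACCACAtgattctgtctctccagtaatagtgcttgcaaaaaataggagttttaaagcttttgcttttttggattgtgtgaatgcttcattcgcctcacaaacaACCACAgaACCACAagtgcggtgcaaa
Runx3 upstream: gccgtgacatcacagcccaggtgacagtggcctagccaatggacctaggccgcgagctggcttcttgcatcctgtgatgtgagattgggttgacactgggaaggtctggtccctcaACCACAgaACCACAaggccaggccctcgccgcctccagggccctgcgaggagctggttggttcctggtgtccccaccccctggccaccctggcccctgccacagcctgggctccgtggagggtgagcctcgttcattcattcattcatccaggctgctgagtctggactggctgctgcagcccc
All 3 hold a pair of RUNX letters separated by the same 2 bases, ACCACAGAACCACA, beginning at base 279 of the Runx1 window, base 274 of the Runx2 window and base 117 of the Runx3 window. The Runx2 window holds 1 more single motif, at base 171. This 14-base run was in 4 of 32851 mouse windows (0.0122%), and the fourth belongs to Gm16225, a noncoding gene on the opposite strand whose window overlaps that of Runx3. The run searched for is the one that these 3 RUNX windows hold, so they are among the 4 by construction. The single motif was in 16.8% of all windows and in 3 of the 9. It was in neither the downstream window of Runx1 nor that of Runx3, and the ETS letters CGGAAG or CTTCCG, searched on both strands and present in 16.9% of windows, were in the Gabpa window alone among the 9. The counts cover whole genes and do not separate transcripts by promoter.

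None of the 8 genes passed the test between Mettl3 knockout and WT cells. Log2 fold changes are given with a standard error (SE) and 95% interval from the edgeR quasi-likelihood fit, p-values were adjusted by Benjamini-Hochberg over all 14185 genes, and a gene was called at an adjusted p under 0.05. By that rule 2.59% of all tested genes were called, 1.09% higher and 1.51% lower in the knockout. The largest differences among the 8 were in Runx3, which was lower in the knockout, and Runx1, which was higher. These 2 had an unadjusted p under 0.05, as did 20.2% of tested genes, and with DESeq2 both passed, Runx3 lower and Runx1 higher, where 9.4% of genes were called (4.67% higher and 4.73% lower). In 6 of the 8 the libraries of the genotypes did not overlap, as in 50.3% of tested genes (25.4% higher and 24.9% lower); the exceptions were Fli1 and Gabpa. Runx1 and Elf1 lay higher in the knockout, and Runx2, Runx3, Cbfb and Ets1 lay lower. The median absolute log2 fold change of the 8 was 0.16, against 0.36 over all tested genes. Under 12 alternative settings, a filter that kept genes reaching 5 CPM in 2 libraries alone among the edgeR and limma fits called a member, Runx3, with 7.39% of genes called (3.41% higher and 3.99% lower). The shares called in the other fits were 2.52% with DESeq2 size factors, 2.85% with total-count scaling, 1.13% with no low-count filter, 1.99% with limma voom, 2.2% with a length trend removed and 0.233% with the replicate number as a block. Leaving out a WT library gave 1.1% (replicate 1) and 0.529% (replicate 2), and leaving out a knockout library gave 0.264% (replicate 1) and 0.289% (replicate 2).

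**Figure D1:**
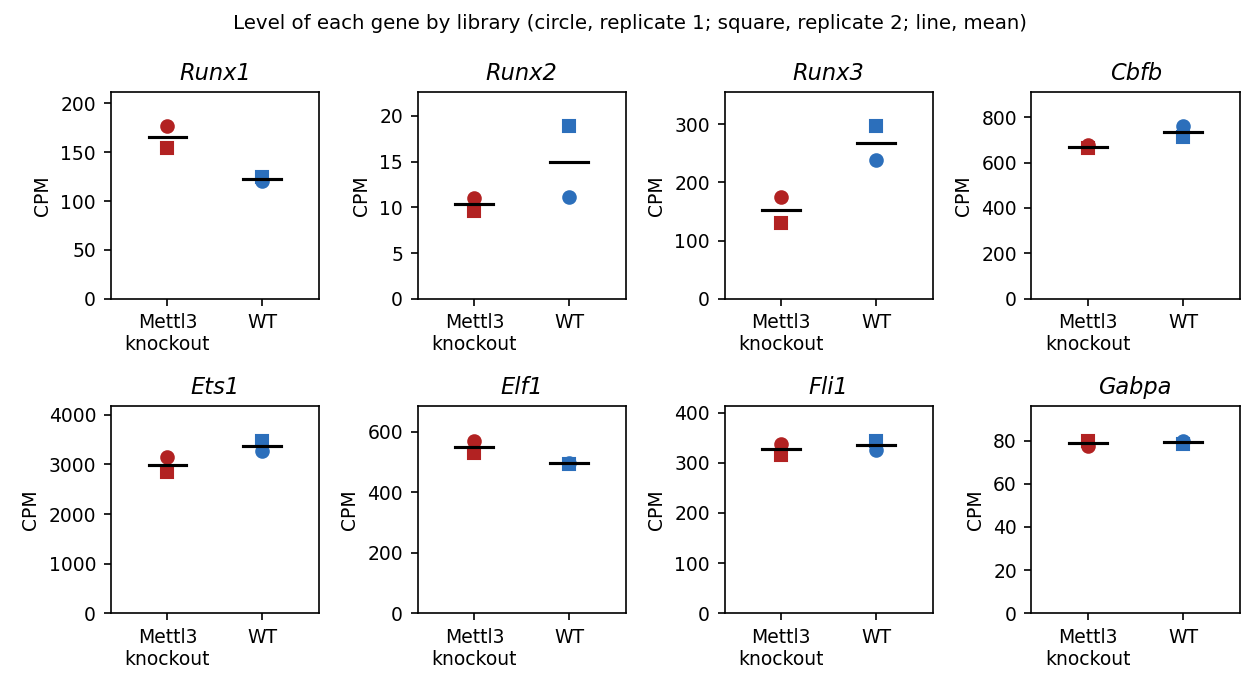
Level of each of the 8 genes in CPM (counts scaled to library size, y axis from 0) in 2 Mettl3 knockout and 2 WT libraries; points are libraries and lines are means. Runx3 lies lower in both knockout libraries (130 and 174 CPM) than in both WT libraries (238 and 296 CPM), Runx1 lies higher, and Fli1 and Gabpa overlap.

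Runx3, the RUNX gene of cytotoxic lymphocytes (ENSMUSG00000070691.10), lies on the plus strand at chr4:135120652-135177990. This and the other gene positions are those of GENCODE M21 on GRCm38. It was at 174 and 130 CPM in the knockout libraries, against 238 and 296 CPM in the WT libraries. CPM here is the count divided by the TMM-scaled library size. No knockout library reached the lower WT library, with means of 152 ± 31.4 CPM in the knockout and 267 ± 40.5 CPM in WT (SD, n = 2 each), 1.76-fold higher in WT. On the log2 scale the difference was -0.81, with an SE of 0.18 and a 95% interval of -1.22 to -0.40 (adjusted p = 0.0607 in edgeR). Of all tested genes, 23.5% had a larger absolute log2 fold change. Over 12 alternative settings the log2 fold change of Runx3 ran between -1.04 and -0.62 and the adjusted p between 0.000642 and 0.280. It passed with DESeq2 (adjusted p = 0.000642) and with the 5 CPM filter (adjusted p = 0.0241 in edgeR). Leaving out knockout replicate 1 gave -1.04, knockout replicate 2 -0.62, WT replicate 1 -0.97 and WT replicate 2 -0.65, each short of the threshold.

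Runx1, which is prominent in CD4+CD8+ thymocytes (ENSMUSG00000022952.16), lies on the minus strand at chr16:92601466-92826149, by another version of its gene model than the count table used. It was at 176 and 154 CPM in the knockout libraries, against 121 and 125 CPM in the WT libraries. Both knockout libraries lay above both WT libraries, and the gap was wider than the spread within either genotype. The means were 165 ± 15.5 CPM in the knockout and 123 ± 2.95 CPM in WT (SD, n = 2 each). On the log2 scale the difference was 0.43, with an SE of 0.13 and a 95% interval of 0.12 to 0.74 (adjusted p = 0.136 in edgeR), and 43.9% of tested genes had a larger absolute value. It was positive under all 12 alternatives, between 0.33 and 0.51, with adjusted p between 0.0433 and 0.485, and passed with DESeq2 alone (adjusted p = 0.0433). Markers of CD4+CD8+ thymocytes, cells in which Runx1 is prominent, summed to 1369 and 1262 CPM in the knockout libraries, against 846 and 979 CPM in the WT libraries. Of the 10, 0 were called, where 2.59% of all tested genes were. The smallest p values were those of Rag1, Cd4 and Cd8a. The part of these markers in the Runx1 level was not tested.

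Runx2, the bone-associated member (ENSMUSG00000039153.16, chr17:44495987-44814797, minus strand), was the lowest of the 8, at 11.0 and 9.59 CPM in the knockout libraries and 11.1 and 18.8 CPM in the WT libraries. WT replicate 1 lay within 0.0955 CPM of the nearest knockout library, so the WT mean of 15.0 ± 5.44 CPM rested on WT replicate 2, against 10.3 ± 1.02 CPM in the knockout (SD, n = 2 each). The log2 fold change of Runx2 was -0.52, with an SE of 0.38 and a 95% interval of -1.41 to 0.37 (adjusted p = 0.501 in edgeR). It was -0.11 when WT replicate 2 was left out and -0.88 when WT replicate 1 was.

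**Figure D2:**
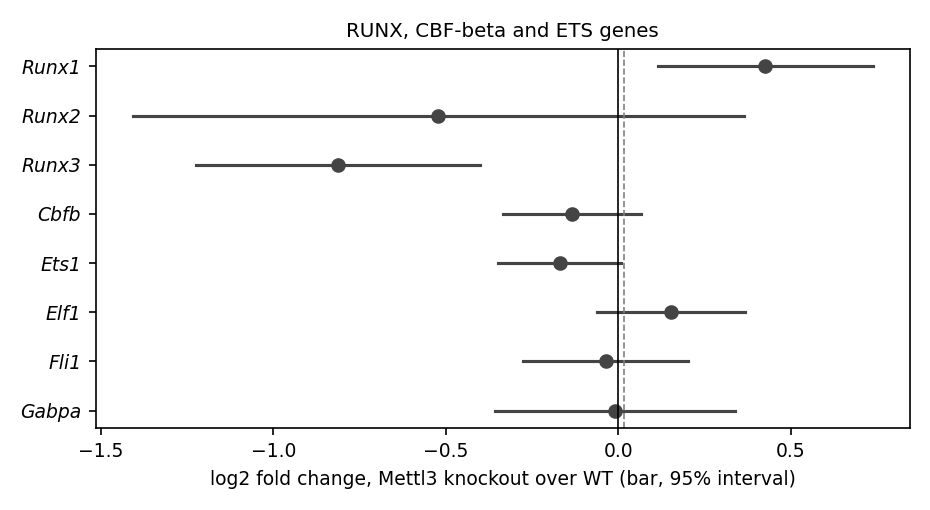
Log2 fold change of each gene, Mettl3 knockout over WT, with its 95% interval from edgeR; the dashed line is the median of all tested genes. Runx1 (0.43) and Runx3 (-0.81) have intervals that leave out 0, and none of the 8 passed after adjustment.

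**Figure D3:**
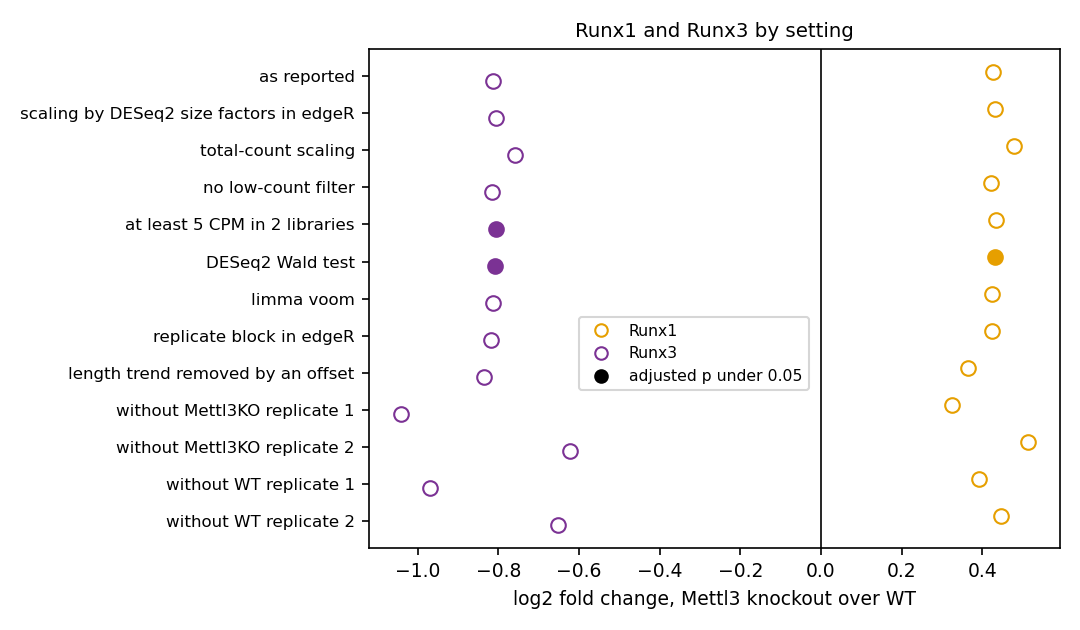
Log2 fold change of Runx1 and Runx3, Mettl3 knockout over WT, under the reported setting and 12 alternatives (rows); filled points have an adjusted p under 0.05. Runx1 stays between 0.33 and 0.51 and Runx3 between -1.04 and -0.62, and filled points appear with DESeq2 for both and with the 5 CPM filter for Runx3.

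The balance within the RUNX genes was read inside each library, where scaling between libraries plays no part. The ratio of Runx3 to Runx1 counts was 0.988 and 0.841 in the knockout libraries, against 1.97 and 2.37 in the WT libraries. Both WT ratios lay above both knockout ratios, and the ratio was on average 2.37-fold higher in WT. The log2 ratio differed by -1.24, knockout minus WT, with an exact two-sided permutation p = 0.333, which is the smallest that 2 libraries against 2 allow. The ratio was chosen after the values of the genes were seen.

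To compare levels between genes, counts were divided by the merged exon length of each gene as well (CPM per kb). On that scale Runx3 made up 68.6% and 65.1% of the summed RUNX level in the knockout libraries, against 80.8% and 82.5% in the WT libraries. Runx1 made up 28.9% and 32.2% in the knockout libraries, against 17.0% and 14.5% in the WT libraries. Runx3 thus led in all 4 libraries, and Runx2 gave 2.14% to 2.97%. The summed RUNX level was 50.7 and 39.8 CPM per kb in the knockout libraries, against 59.0 and 71.6 CPM per kb in the WT libraries. Cbfb, the shared partner, stood above that sum in every library, by 3.83 and 4.79 times in the knockout and 3.70 and 2.85 times in WT. With the longest transcript as length, the Runx1 share was 41.1% in the knockout and 22.9% in WT, and that of Runx3 was 56.6% in the knockout and 74.6% in WT.

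**Figure D4:**
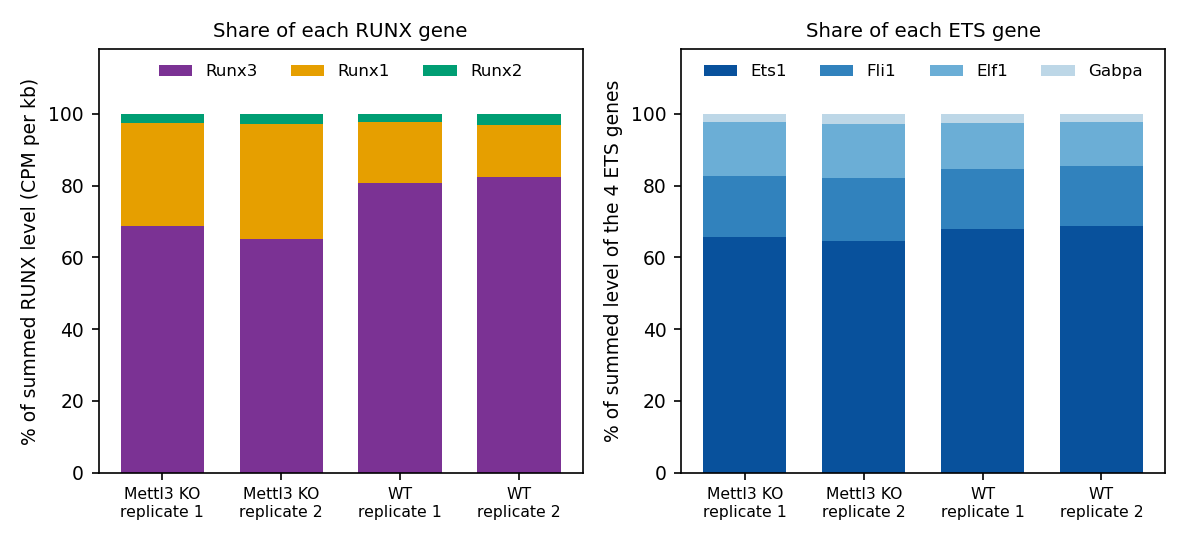
Share of each RUNX gene in the summed RUNX level (left) and of each of the 4 ETS genes in their sum (right), in percent of CPM per kb, in 2 Mettl3 knockout and 2 WT libraries. Runx3 takes 65.1% to 68.6% in the knockout and 80.8% to 82.5% in WT, and Ets1 takes 64.6% to 65.6% in the knockout and 68.0% to 68.8% in WT.

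Cbfb, which encodes CBF-beta (ENSMUSG00000031885.14, chr8:105170674-105217989, plus strand), was at 675 and 664 CPM in the knockout libraries, against 759 and 711 CPM in the WT libraries. The knockout libraries lay below the WT libraries by a gap of 35.6 CPM, close to the WT SD of 33.5 CPM. The log2 fold change of Cbfb was -0.13, with an SE of 0.09 and a 95% interval of -0.33 to 0.07 (adjusted p = 0.442 in edgeR), which leaves room for a level between 0.793 and 1.05 times that of WT.

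Ets1, which is required for natural killer and iNKT cells in mice (ENSMUSG00000032035.15, chr9:32636221-32757820, plus strand), was the most abundant of the 8. By mean CPM, which is not scaled to exon length, it ranked 6 among the 14185 tested genes. It was at 3152 and 2841 CPM in the knockout libraries, against 3262 and 3479 CPM in the WT libraries. The genotypes did not overlap, by a gap of 111 CPM that was smaller than the SD in either (220 CPM in the knockout and 153 CPM in WT, n = 2 each). The log2 fold change of Ets1 was -0.17, with an SE of 0.08 and a 95% interval of -0.35 to 0.01 (adjusted p = 0.268 in edgeR). It lay between -0.25 and -0.10 over the 12 alternatives, and none of them called it.

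Elf1, an ETS factor of T and natural killer cells (ENSMUSG00000036461.16, chr14:79481194-79582494, plus strand), was at 570 and 531 CPM in the knockout libraries, against 495 and 494 CPM in the WT libraries. Both knockout libraries were higher, while the WT libraries lay within 1 CPM of each other. The log2 fold change of Elf1 was 0.15, with an SE of 0.09 and a 95% interval of -0.06 to 0.37 (adjusted p = 0.405 in edgeR).

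Fli1, the neighbour of Ets1 on chromosome 9 and a regulator of blood stem cells and lymphocytes (ENSMUSG00000016087.13, chr9:32422204-32542861, minus strand), was at 338 and 316 CPM in the knockout libraries, against 327 and 344 CPM in the WT libraries. Gabpa, the DNA-binding subunit of the GABP complex (ENSMUSG00000008976.16, chr16:84834925-84863779, plus strand), was at 77.5 and 79.9 CPM in the knockout libraries, against 79.8 and 78.5 CPM in the WT libraries. In both genes the genotypes overlapped. The log2 fold change of Fli1 was -0.04 (95% interval -0.28 to 0.20; edgeR adjusted p = 0.894), and it was 0.02 with total-count scaling. That of Gabpa was -0.01 (95% interval -0.36 to 0.34; edgeR adjusted p = 0.982), and it was 0.04 with total-count scaling. The intervals leave room for levels of 0.826 to 1.15 times WT for Fli1 and 0.781 to 1.26 times WT for Gabpa.

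Per kilobase of exon, the order in WT was Ets1 (398 ± 18.1 CPM per kb), Cbfb (211 ± 9.64), Fli1 (96.2 ± 3.56), Elf1 (73.5 ± 0.0867), Runx3 (53.4 ± 8.09), Gabpa (13.9 ± 0.163), Runx1 (10.2 ± 0.245) and Runx2 (1.70 ± 0.616; SD, n = 2). Neighbours in this WT order did not overlap between libraries. In the knockout Runx1, at 14.7 and 12.8 CPM per kb, overlapped Gabpa, at 13.6 and 14.1 CPM per kb, so their order there was not resolved. The other neighbours kept the WT order in the knockout without overlap. With the longest transcript as length, Elf1 stood above Fli1 and Runx1 above Gabpa in both genotypes. Ets1 supplied 65.6% and 64.6% of the summed level of the 4 ETS genes in the knockout libraries, against 68.0% and 68.8% in the WT libraries. Elf1 supplied 14.9% and 15.2% in the knockout libraries, against 13.0% and 12.3% in the WT libraries.

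Reads of overlapping genes cannot be told apart without strand, and 4 of the 8 share exon sequence with a neighbour. The overlap is 0.881% of exon bases for Runx1 (Gm26626), 5.87% for Runx2 (Runx2os1), 4.85% for Elf1 (Wbp4) and 6.98% for Gabpa (Atp5j). Gm26626 and Runx2os1 had at most 1.71 CPM in any library, and neither Wbp4 (adjusted p = 0.440 in edgeR) nor Atp5j (0.498) was called.

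Among the rest of the ETS family, Etv5 and Etv6 were higher in the knockout. Of 22 further ETS genes, 14 were tested, 2 rose and 0 fell, against 1.09% and 1.51% of all tested genes, and 11 of the 14 had a positive log2 fold change, with a median of 0.38 against 0.02 over all tested genes. Etv6, an ETS repressor, was at 45.6 and 42.1 CPM in the knockout libraries, against 19.7 and 19.5 CPM in the WT libraries. Etv6 rose by 1.16 on the log2 scale, with an SE of 0.22 (adjusted p = 0.0430 in edgeR). Etv5, an activator induced by receptor and MAP kinase signals, was at 38.0 and 37.1 CPM in the knockout libraries, against 17.5 and 12.1 CPM in the WT libraries. Etv5 rose by 1.33 on the log2 scale, with an SE of 0.26 (adjusted p = 0.0483 in edgeR). In both genes every knockout library lay above both WT libraries. Over the 12 alternatives Etv6 passed in 6, with adjusted p between 0.000264 and 0.212, and Etv5 in 4, with adjusted p between 0.000936 and 0.210. Neither passed when any of the 4 libraries was left out, with log2 fold changes of 1.10 to 1.21 for Etv6 and 1.10 to 1.62 for Etv5.

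The further ETS genes with the highest WT levels in CPM, Elf4 and Elf2, were not called. Elf4, a restraint on proliferation of CD8+ T cells, was at 176 and 164 CPM in the knockout libraries, against 186 and 207 CPM in the WT libraries (log2 fold change -0.21, adjusted p = 0.399 in edgeR). Elf2 was at 174 and 184 CPM in the knockout libraries, against 177 and 211 CPM in the WT libraries (log2 fold change -0.12, and 0.01 without WT replicate 2; adjusted p = 0.697 in edgeR). Spi1, which encodes PU.1 of myeloid and B cells, was at 10.5 and 11.4 CPM in the knockout libraries, against 2.92 and 3.26 CPM in the WT libraries (log2 fold change 1.83, adjusted p = 0.0756 in edgeR). Myeloid markers summed to 497 and 550 CPM in the knockout libraries, against 150 and 167 CPM in the WT libraries. Lyz2 made up most of the knockout sums. Of the 11 tested, 3 were higher (Lyz2, Cd209a and Csf1r) and 1, Fcer1g, was lower, where 1.09% of all tested genes rose and 1.51% fell. The log2 fold change was positive in 7 of the 11 and negative in 4. Lyz2 was at 325 and 386 CPM in the knockout libraries, against 29.6 and 47.5 CPM in the WT libraries, and passed without each library in turn. Cd209a lost its call without knockout replicate 2 (5.27), and Csf1r kept it only without knockout replicate 2 (6.02). Itgam, named after its values were seen, had at most 0.272 CPM. Their part in the Spi1 level was not tested. Elf4, Elf2 and Spi1 were named after their values were seen. The 8 ETS genes that were not tested had at most 0.602 CPM in any library, and Elf5, Etv2 and Fev had no count at all.

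**Figure D5:**
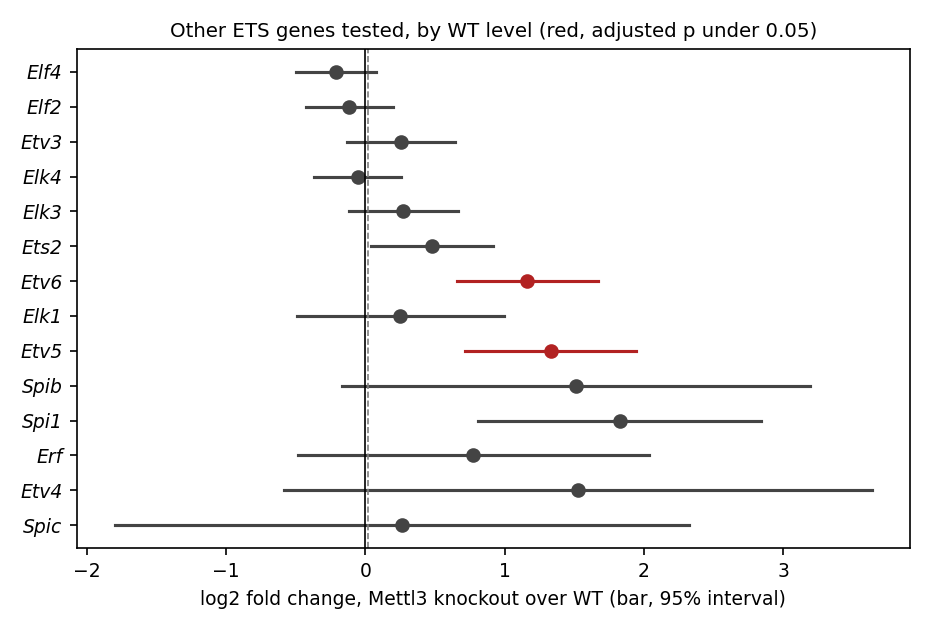
Log2 fold change, Mettl3 knockout over WT, with 95% intervals from edgeR for the 14 further ETS genes tested, ordered by WT level from high to low; red marks adjusted p under 0.05. Etv6 (1.16) and Etv5 (1.33) passed, while Elf4 (-0.21) and Elf2 (-0.12), at the highest WT levels in CPM, did not.

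Partner genes of RUNX and GABP gave no call. Of 21 listed partners 19 were tested, and 0 rose and 0 fell, where 1.09% of all tested genes rose and 1.51% fell. The median log2 fold change of the partners was 0.13. Of the 19, 4 had an unadjusted p under 0.05, as did 20.2% of all tested genes. DESeq2 called 1 partner, where it called 9.4% of all genes. Among the smallest p values were those of the histone methyltransferase gene Kmt2a, whose product binds RUNX1 (log2 fold change -0.50, edgeR adjusted p = 0.163), and of the Groucho corepressor gene Tle1 (log2 fold change 1.20, edgeR adjusted p = 0.170). Tle1 was at 0.78 without WT replicate 2 and 1.87 without WT replicate 1. Gabpb1, the main beta subunit of GABP, was at 51.7 and 66.3 CPM in the knockout libraries, against 62.2 and 55.7 CPM in the WT libraries, and the genotypes overlapped. Gabpb1 was named after its values were seen. Of 14 tested mitochondrial genes listed as GABP-regulated, 0 rose and 0 fell, where 1.09% of all tested genes rose and 1.51% fell. Their median log2 fold change was -0.11, with 3 positive and 11 negative values. Of them 1 had an unadjusted p under 0.05, against 20.2% of all tested genes. The smallest p was that of Tfam, the mitochondrial DNA packaging factor (log2 fold change -0.29, edgeR adjusted p = 0.230), followed by Sdhb (-0.40, edgeR adjusted p = 0.284) and Cox8a (-0.37, edgeR adjusted p = 0.376), of respiratory complexes. Sdhb was at -0.25 without knockout replicate 2, and Cox8a was at -0.16 without WT replicate 1, -0.56 without WT replicate 2 and -0.19 with the length trend removed.

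Genes known to be regulated by RUNX in T cells changed in both directions. The list was chosen with earlier results of these data known, so its counts cannot test whether RUNX-regulated genes respond more than others. Of 27 tested, 2 rose and 8 fell in the knockout, where 1.09% of all tested genes rose and 1.51% fell. The median log2 fold change was 0.34, against 0.02 over all tested genes, with 16 positive and 11 negative values, although more calls were lower than higher; 23 had an unadjusted p under 0.05, as did 20.2% of all tested genes. The 8 that fell encode surface receptors (Itgae, Cd160), cytotoxic proteins (Prf1, Gzmb), chemokines (Ccl5, Xcl1), interferon gamma (Ifng) and the transcription factor T-bet (Tbx21). Itgae, the CD103 integrin chain whose expression in CD8+ T cells needs RUNX3, was at 146 and 115 CPM in the knockout libraries, against 339 and 394 CPM in the WT libraries, 2.80-fold higher in WT (edgeR adjusted p = 0.00558). Cd160, a receptor of natural killer cells, was at 33.4 and 51.2 CPM in the knockout libraries, against 138 and 152 CPM in the WT libraries (edgeR adjusted p = 0.00888). Prf1, which encodes perforin, was at 47.3 and 36.8 CPM in the knockout libraries, against 113 and 201 CPM in the WT libraries (edgeR adjusted p = 0.0273). In all 3 genes both knockout libraries lay below both WT libraries. Satb1, a chromatin organiser, rose by 0.94 on the log2 scale (adjusted p = 0.00395 in edgeR), and Ccr7, a chemokine receptor of naive cells, rose by 1.36 (adjusted p = 0.00342 in edgeR). Ifng and Gzmb fall outside the naming rule and were named after their values were seen.

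Cd4 and Zbtb7b, genes with silencers that bind RUNX proteins, were chosen from this list after their values were seen. Cd4 was at 671 and 583 CPM in the knockout libraries, against 438 and 453 CPM in the WT libraries, 0.49 higher on the log2 scale with an SE of 0.10 (adjusted p = 0.0561 in edgeR). Zbtb7b, which encodes the helper lineage factor ThPOK, was at 103 and 79.2 CPM in the knockout libraries, against 45.3 and 63.8 CPM in the WT libraries, 0.75 higher on the log2 scale with an SE of 0.22 (adjusted p = 0.124 in edgeR). Both were higher in every knockout library without passing the edgeR test. The same held for Cd8a (log2 fold change 0.89, edgeR adjusted p = 0.0734) and Cd8b1 (0.60, edgeR adjusted p = 0.122) of this list, also named after their values were seen. In the list 16 of 27 tested genes had a positive and 11 a negative log2 fold change, so these genes do not stand for the whole. A link to RUNX was not tested. Cd4 passed in 3 of the 12 alternatives (total-count scaling, the 5 CPM filter and DESeq2), with adjusted p between 0.000390 and 0.306, and Zbtb7b in 1 (DESeq2), with adjusted p between 0.0373 and 0.447.

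The calls among these RUNX-regulated genes depended on the libraries used, and leaving out any library also lowered the share called over all genes. Lost calls are thus not particular to this list. The 8 genes that fell and the 2 that rose kept the sign of their log2 fold change in all 12 alternatives. With 1 library left out, a genotype has a single library, so a lost call does not show that a difference is absent. Itgae lost its call when knockout replicate 2 was left out (adjusted p = 0.0508 in edgeR, log2 fold change -1.33); over the 12 alternatives its adjusted p lay between 5.01e-17 and 0.0669. Leaving out WT replicate 2 or knockout replicate 1 ended the call of Cd160, at log2 fold changes of -1.71 and -1.50. Prf1 lost it at -1.42 when WT replicate 2 was left out, and at -2.09 and -1.73 when knockout replicates 1 and 2 were. Tbx21 lost it without those same libraries, at -0.76, -1.03 and -0.93, and Ccl5 likewise at -3.15, -3.59 and -3.64. Xcl1 and Ifng lost it without each of the 4 libraries, between -3.71 and -2.28 for Xcl1 and between -1.80 and -1.39 for Ifng. Gzmb lost it without knockout replicate 1 (-2.20) or knockout replicate 2 (-2.40). Satb1 and Ccr7 passed without each library in turn.

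Lymphocyte genes known to be regulated by ETS factors, a list that includes Runx3 and shares Tbx21, Prf1, Ccr7, Il2rb, Il7r, Klf2 and Csf2 with the RUNX list, also changed both ways. This list too was chosen with earlier results of these data known, so its counts cannot test whether ETS-regulated genes respond more than others. Of the 28 tested ETS-regulated genes, 3 rose and 4 fell, where 1.09% of all tested genes rose and 1.51% fell. The median log2 fold change was -0.20, with 10 positive and 18 negative values, and 16 had an unadjusted p under 0.05, against 20.2% of all tested genes. Fasl, which encodes the death ligand, was at 91.7 and 80.5 CPM in the knockout libraries, against 242 and 406 CPM in the WT libraries, 3.75-fold higher in WT (edgeR adjusted p = 0.0124). Fcer1g, a signalling chain of natural killer cells, was at 8.67 and 9.75 CPM in the knockout libraries, against 27.9 and 32.4 CPM in the WT libraries (adjusted p = 0.0311 in edgeR). Il2ra, the high-affinity interleukin-2 receptor chain, was at 42.5 and 38.5 CPM in the knockout libraries, against 6.69 and 14.8 CPM in the WT libraries (edgeR adjusted p = 0.0365). Cd5, a brake on T cell receptor signals, rose 1.60-fold (edgeR adjusted p = 0.0275). For Fasl and Fcer1g both knockout libraries lay below both WT libraries, and for Il2ra and Cd5 above them. The T cell receptor kinase genes Lck and Zap70 were not called and were named after their values were seen. Lck was at 912 and 878 CPM in the knockout libraries, against 915 and 973 CPM in the WT libraries (log2 fold change -0.08, adjusted p = 0.663 in edgeR). Zap70 was at 454 and 427 CPM in the knockout libraries, against 587 and 579 CPM in the WT libraries (log2 fold change -0.40, adjusted p = 0.0658 in edgeR). Zap70 passed in 2 of the 12 alternatives. Calls in this list too depended on the libraries used, as did those over all genes. The 3 genes that rose and the 4 that fell kept the sign of their log2 fold change in all 12 alternatives. Fasl lost its call without knockout replicate 1 (-2.01) or knockout replicate 2 (-1.82), and Cd5 lost it at 0.54 when WT replicate 1 was left out, and at 0.63 and 0.71 when knockout replicates 1 and 2 were. Il2ra and Fcer1g lost it without each of the 4 libraries, at 1.45 to 2.59 for Il2ra and -1.82 to -1.60 for Fcer1g.

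The genes whose pattern over the 4 libraries lay nearest to those of Runx1, Runx3 and Ets1 were sought among 4168 protein-coding genes at 50 CPM or more in both genotypes. The measure was the root mean square difference of log2(CPM + 0.5), centred on each gene's mean, over 4 libraries. For Runx3 the nearest were Cerk (0.0251), Phf1 (0.0508) and Ubxn2a (0.0590). For Runx1 they were Nop2 (0.0298), Ttc3 (0.0314) and Rb1 (0.0321), and for Ets1 Aurkaip1 (0.0076), Ociad1 (0.0127) and Hat1 (0.0128). Cerk, the nearest to Runx3, was at 135 and 102 CPM in the knockout libraries, against 178 and 227 CPM in the WT libraries.

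The m6A mark itself was not measured. GGACT, the commonest form of the sequence context in which METTL3 methylates adenosine, was counted in the longest annotated transcript of each gene. Fli1 held 2.11 and Ets1 1.97 such runs per kb, above 91.6% and 89.0% of 11698 tested protein-coding genes, whose median was 1.04 per kb. The other 6 genes held 0.602 to 1.08 per kb, and Runx3 held 3 runs in all. A run is not a methylated site.

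Library depth and markers of other cell types were taken from the same table. Counts totalled 25402792 and 24374587 in the knockout libraries, against 28316016 and 25931610 in the WT libraries, and each of the 8 genes had at least 239 counts in every library. Mettl3 itself was at 78.1 and 91.4 CPM in the knockout libraries, against 92.2 and 124 CPM in the WT libraries (log2 fold change -0.35, adjusted p = 0.357 in edgeR). Knockout replicate 2 was nearly level with WT replicate 1, and the log2 fold change of Mettl3 was -0.56 without WT replicate 1, -0.13 without WT replicate 2 and -0.24 without knockout replicate 1. The counts cover the whole gene, so exons outside the deleted part still count, and this value does not check the deletion. The 13 iNKT identity genes summed to 6703 and 6684 CPM in the knockout libraries, against 7587 and 8449 CPM in the WT libraries. Of them 1 was higher and 3 were lower, where 1.09% of all tested genes rose and 1.51% fell. Klrb1c, the NK1.1 receptor gene, was 2.69-fold, the adhesion receptor gene Cd44 2.20-fold and the receptor constant gene Trac 1.49-fold higher in WT, while Slamf6, a signalling receptor gene, was 1.74-fold higher in the knockout. Klrb1c passed without each library in turn; Cd44 and Trac did not without either knockout replicate (-1.06 and -1.23 for Cd44, -0.59 and -0.58 for Trac, without replicates 1 and 2), and Slamf6 passed only without WT replicate 1 (0.999), with 0.61 to 0.85 otherwise. The receptor segments Traj18 and Trav11, named after their values were seen, were at 0.777 to 3.49 CPM. RUNX and ETS genes are active in many blood cells, and some markers of other cells differed between the genotypes. Summed MHC class II genes were at 2088 and 2215 CPM in the knockout libraries, against 92.3 and 221 CPM in the WT libraries. Of the 5, 4 were called higher, where 1.09% of all tested genes were: H2-Ab1, Cd74, H2-Eb1 and H2-Aa, by 12.7-fold to 14.9-fold. H2-Ab1 passed without each library in turn, and the other 3 did not without either knockout replicate, at log2 fold changes of 3.61 to 3.94. Summed B cell markers were at 192 and 361 CPM in the knockout libraries, against 233 and 220 CPM in the WT libraries. Of 7 tested, 0 were called, where 2.59% of all tested genes were. The smallest p values were those of Ms4a1, Ighm and Cd79a, and Pax5, named after its values were seen, had no count. Erythroid and stromal markers summed to 88.2 and 93.9 CPM in the knockout libraries, against 64.3 and 54.1 CPM in the WT libraries. Of 8 tested, 0 were called, against the same 2.59% of all tested genes. The smallest p values were those of Pecam1, Cdh5 and Col1a1. Pecam1 made up most of each sum, at 72.2 and 77.6 CPM in the knockout libraries and 50.4 and 38.4 CPM in the WT libraries. Cdh5 (log2 fold change 7.63) and Col1a1 (-7.40) went opposite ways, with at most 1.28 and 1.19 CPM in any library. The part of these transcripts in the values of the 8 genes and of the genes they regulate was not tested. In bulk samples fewer cells of a type and less RNA per cell cannot be told apart.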

How the data were processed

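RNA was measured in 4 libraries, and groups and replicate numbers come from the sample titles. The authors deposited raw read counts per gene, whole numbers with 1 column per library. Build mm10 and, as tools, HTSeq 0.6.1, DESeq2 1.18.1, STAR 2.6.0a and FastQC 0.11.5 are named, per the submitters' processing notes; what each did, the annotation release and any strand setting are not given in sources used here.

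Of 53715 IDs, 53620 matched the GENCODE M21 annotation (GRCm38) without the version suffix and 51464 with it; the ID of Runx1 matched without it. Where 1 symbol had several IDs, the ID with the most counts was used. Mterf1, of the mitochondrial list, was not matched. The edgeR 4.0.16 quasi-likelihood test in R 4.3.3 (legacy=FALSE, robust=TRUE, filterByExpr, TMM factors of 1.01 and 1.02 for knockout replicates 1 and 2 and 0.994 and 0.970 for WT replicates 1 and 2) used no covariate and left 2 residual degrees of freedom. The SE was taken as the absolute log2 fold change over the square root of F. The 12 alternatives were DESeq2 1.42.0, limma 3.58.1 (voom), DESeq2 size factors, total-count scaling, no low-count filter, a 5 CPM filter, a length trend removed, a replicate block and each of the 4 libraries left out. Scripts were tested on simulated data. Libraries of a genotype differed by more than counting noise (chi-square per degree of freedom 27.8 in the knockout and 45.0 in WT), so they were not counted as 1 library; they were used as replicates because the labels number them so, and this does not show separate animals. Smart-seq2 has no molecular identifiers, so reads are not independent molecules and intervals reflect library and counting error alone.

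The members and gene lists were chosen with earlier results of these data known. The naming rule takes every member, all called genes of a list (the 8 with the smallest p if more), and the 3 smallest p where a list has none called, Mettl3, and the 3 genes nearest in pattern to Runx1, Runx3 and Ets1; genes named outside it are marked. A gene of the partner list that the rule takes is not reported here.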

Additional observations from a re-analysis of the deposited data

How the results depend on the processing

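With 2 libraries a genotype, the counts of called genes depended on the setting. The 154 genes that were higher became 93 with no filter on low counts, 335 with the 5 CPM filter and 662 with DESeq2, and the 214 lower genes became 392 with the 5 CPM filter and 671 with DESeq2. Leaving out 1 library gave 13 to 40 higher and 26 to 132 lower. Of the 8 members, DESeq2 called 1 higher (Runx1) and 1 lower (Runx3), the 5 CPM filter called 1 lower (Runx3), and leaving out any library called 0 in either direction. The cause was not tested. Fli1 reversed to 0.0177 with total-count scaling and ran between -0.0845 and 0.0051 with 1 library left out; Gabpa reversed to 0.0440 and ran between -0.0359 and 0.0122. No other member changed sign. Elsewhere, Elf2 ran between -0.249 and 0.0134 with 1 library left out, and the log2 fold change of Gabpb1, at -0.00196 as reported, reversed to 0.00364 with DESeq2 size factors, 0.0512 with total-count scaling, 0.00399 with the 5 CPM filter and 0.00665 with DESeq2, and ran between -0.195 and 0.168 with 1 library left out. With the longest transcript as length, shares in the RUNX sum were 41.1% in the knockout and 22.9% in WT for Runx1, 2.33% in the knockout for Runx2, and 56.6% in the knockout and 74.6% in WT for Runx3. By construction the levels also moved, and in CPM per kb they were 28.2 in the knockout and 21.0 in WT for Runx1, 1.60 and 2.32 for Runx2, 39.1 and 68.8 for Runx3, 232 and 254 for Cbfb, 590 and 664 for Ets1, 130.0 and 117 for Elf1, 98.6 and 101 for Fli1, and 15.8 and 15.9 for Gabpa, in the same order of genotypes. Over genes, the deviations of same-numbered libraries from their group means had a correlation of -0.0125. With 2 libraries a genotype this rests on a single contrast in each, so it cannot show whether replicate numbers pair the libraries. With the number as a replicate block 7 genes were higher, 26 were lower and no member was called (Runx3 edgeR adjusted p = 0.191, Runx1 0.240).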
